A study of Homo sapiens with 18 samples.

Results

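In the first RNA-seq experiment, 135 genes were nearly lost from ABCC1-overexpressing cells while empty vector control cells expressed them. They were chosen by level alone, as genes with a mean of at least 0.5 CPM (counts scaled by the library total) in the 3 empty vector libraries and a mean in the 3 ABCC1 libraries of at most 0.125 times that level. Of 57905 Ensembl genes counted, 15271 reached the level minimum, and 137 of these met the ratio, which is 0.897% and was fixed by the rule itself. MEGF10 and ACMSD were then left out by name, and CD38, also left out by name, lay just outside the rule at a ratio of 0.131. Because the first experiment chose the 135 genes, its values are a description without a test, and only the 2 repeat experiments were tested.

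The cells were BE(2)-m17, a human line grown from a neuroblastoma. All cells carried pSBbi-Hyg-APP, a transposable vector with a codon-optimized cDNA of the amyloid precursor protein. They also carried either pSBbi-Pur without an insert (empty vector control, labelled Puro) or pSBbi-Pur-ABCC1(WT) with codon-optimized human ABCC1, an efflux pump that exports drugs and glutathione conjugates. RNA was sequenced in 3 experiments (RNA1, RNA2 and RNA3), each with 3 cultures of either line, 18 libraries in all. RNA2 was taken as cryopreserved cells and RNA3 as newly transfected cells, from the order in which the study describes them, since the labels only number the experiments. The study sets the cryopreserved cells against freshly transfected ones. RNA2 was therefore read as the stored lines of RNA1, and not as a repeat in newly made lines. The vectors integrate into the genome by the Sleeping Beauty transposase, and stable cells were kept by hygromycin and puromycin selection. Within an experiment each group was cultures of a single line, so ABCC1 and any other difference between the pair of lines cannot be told apart there, and p-values measure the spread between cultures.

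Neuroblastoma arises from the sympathoadrenal lineage of the neural crest, and its cells normally keep genes of unrelated tissues switched off. Examples among the 135 genes, chosen after their values were seen, are the immunoglobulin joining chain JCHAIN of plasma cells, the milk protein CSN2, the T-cell receptor subunit CD3D and the gastric annexin ANXA10. Examples known from neurons and endocrine cells are the calcium sensor secretagogin (SCGN), the peptide hormone CCK, the netrin receptor DCC and the metabotropic glutamate receptor GRM3.

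Promoters of the 3 genes still called lower in RNA2 with background reads as a covariate (SCGN, ANXA10 and JCHAIN) are shown so that their composition can be compared, each from 250 bases before to 50 bases after the annotated start (RefSeq, GRCh38.p14). Capitals mark CG dinucleotides and TATAAA on either strand.
SCGN (chr6:25651965-25652264, plus strand): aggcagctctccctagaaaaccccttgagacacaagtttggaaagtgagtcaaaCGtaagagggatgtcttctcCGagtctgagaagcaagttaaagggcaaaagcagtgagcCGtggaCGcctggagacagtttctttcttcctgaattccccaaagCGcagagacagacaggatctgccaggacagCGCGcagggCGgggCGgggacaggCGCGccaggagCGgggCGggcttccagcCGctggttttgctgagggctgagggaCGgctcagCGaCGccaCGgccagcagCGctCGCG
ANXA10 (chr4:168092287-168092586, plus strand): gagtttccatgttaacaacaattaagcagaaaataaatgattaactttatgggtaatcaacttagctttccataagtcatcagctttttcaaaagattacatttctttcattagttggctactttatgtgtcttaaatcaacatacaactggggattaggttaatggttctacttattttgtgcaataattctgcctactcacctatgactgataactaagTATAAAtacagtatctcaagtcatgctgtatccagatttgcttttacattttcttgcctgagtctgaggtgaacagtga
JCHAIN (chr4:70666459-70666758, minus strand): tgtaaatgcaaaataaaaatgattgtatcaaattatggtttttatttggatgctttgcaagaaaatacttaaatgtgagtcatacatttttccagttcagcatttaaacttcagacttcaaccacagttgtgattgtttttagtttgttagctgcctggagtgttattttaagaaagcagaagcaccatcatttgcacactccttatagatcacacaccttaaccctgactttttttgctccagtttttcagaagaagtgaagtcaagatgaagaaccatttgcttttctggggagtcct
The SCGN window held 21 CG dinucleotides, and the windows of ANXA10 and JCHAIN held none. Across 22114 promoters of this length the median was 12, and 95.5% held at least 1. TATAAA was found in the ANXA10 window and in 12.7% of all promoters. Only 73 of the 135 genes had an entry in the promoter table, so no share over the 135 genes was computed.

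Codon-optimized ABCC1 was counted 51035 to 594404 times in each ABCC1 library and 0 to 15 times in each empty vector library. All 16 genes of an adrenergic list (PHOX2A, HAND2, GATA3, MYCN, CHGA and others) were counted in each group, with a summed level of 4771 to 5139 CPM per kilobase of exon over the empty vector libraries of RNA1 and 4133 to 4663 over the ABCC1 libraries. The 12 mesenchymal identity genes summed to 129 to 140 against 126 to 128 CPM per kb. Sums of 11 leukocyte genes, without CD3D, which the rule chose, were 0.594 to 1.04 against 0.588 to 0.674 CPM per kb, those of 7 endothelial genes 0.228 to 0.252 against 0.156 to 0.194 and those of 8 Schwann and glial genes 1.63 to 1.94 against 1.59 to 1.73. The sums of the lines overlapped for the leukocyte and the Schwann and glial genes and not for the others, and their part in the values of the 135 genes was not tested. The leukocyte-defining PTPRC stood at 0.00269 and 0.00336 CPM per kb in empty vector and ABCC1 cells of RNA1. Its counts there were only 3, 0 and 0 against 3, 1 and 0. Genes of that list moved either way, with LYZ at 0.09998 and 0.00331 CPM per kb, CD14 at 0.189 and 0.0724 and CSF1R at 0.214 and 0.348. CD3D was the only gene of the list among the 135, and LYZ lay under the level minimum at 0.176 CPM. The sum of the 8 fibroblast genes was higher in the ABCC1 libraries, at 58.8 to 59.9 against 77.5 to 79.96 CPM per kb. LUM stood at 27.5 and 36.6, DCN at 4.74 and 9.62 and THY1 at 25.2 and 28.9. COL3A1 and COL1A2 were lower in ABCC1 cells, at 0.126 and 0.0917 and at 0.00109 and 0.

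Depth was 27331531 to 57174128 counts on Ensembl genes in RNA1, 19340988 to 30682665 in RNA2 and 8829522 to 13229834 in RNA3. RNA1 used an mRNA kit and the repeats a total RNA kit, and the repeats carried reads on genes that were nearly empty in RNA1. Olfactory receptor genes, 350 genes of the nasal epithelium taken as silent here, measured this background. Their pooled level was 0.00390 to 0.00556 CPM per kb in RNA1, and it stood at 0.123 to 0.776 in RNA2 and 1.05 to 1.81 in RNA3. Within RNA2 the background itself differed between the lines, where the control line had 0.776, 0.529 and 0.586 CPM per kb and ABCC1 cells had 0.123, 0.316 and 0.435. RNA2 ABCC1 replicate 1 stood apart with the lowest background of the repeats. A level in RNA2 or RNA3 near these values cannot be read as expression.

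In the empty vector cells of RNA1 the 135 genes ranged from 0.505 to 118 CPM with a median of 1.07, and 62 of them lay under 1 CPM. A level of 10 CPM was reached by 7 genes, and SCGN alone gave 25.2% of the summed level. The coefficient of variation between the empty vector libraries had a median of 12.3%. In the ABCC1 cells 32 genes had no count in any library and 86 had 3 counts or fewer in each, the floor used here for a fold. Folds of those 86 genes are lower bounds, with each ABCC1 library set to 3 counts. Floors cover counting error only, since reads without molecular identifiers are not independent molecules.

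**Figure D1:**
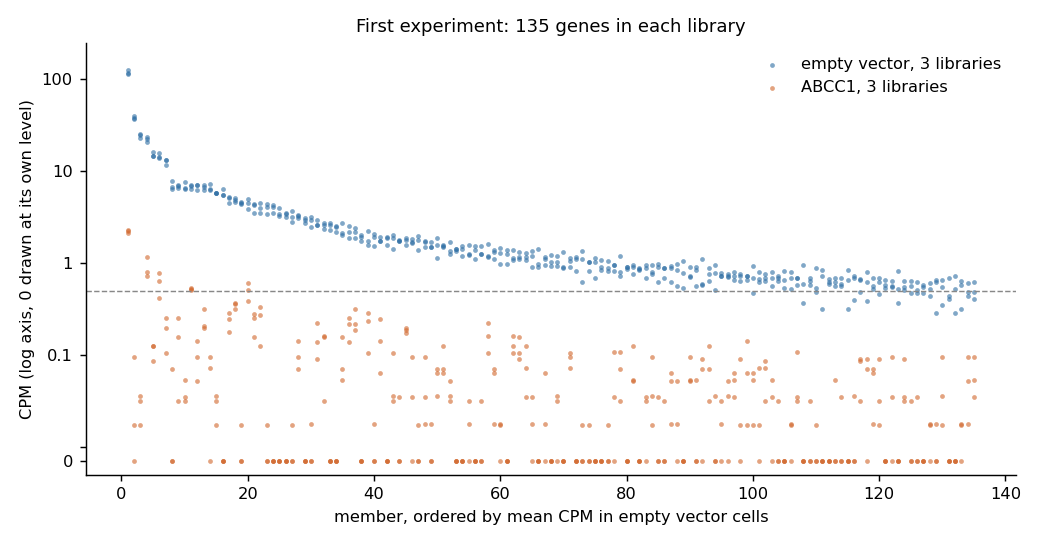
CPM of the 135 genes in the 6 RNA1 libraries (log axis, libraries without a count drawn at the level marked 0), ordered by their mean in empty vector cells, with the 0.5 CPM minimum as a dashed line. SCGN lies highest in both lines, near 118 and 2.22 CPM, and 32 genes have all 3 ABCC1 points at 0.

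SCGN and ANXA10, but not KCNIP1, of the 3 calcium-binding and annexin genes were among the 20 highest. SCGN (ENSG00000079689, chromosome 6, 25652464 to 25702011, plus strand, GRCh37), an EF-hand calcium sensor of neuroendocrine cells, was counted at 114, 125 and 116 CPM in the empty vector libraries and at 2.22, 2.31 and 2.13 CPM in the ABCC1 libraries. The groups lay far apart, and SCGN, 53.2-fold lower, kept the highest ABCC1 level of all 135 genes. ANXA10, an annexin best known from gastric epithelium, was at 6.80, 7.76 and 6.37 CPM against 4 counts in ABCC1 replicate 3 and none in the other libraries of that line. KCNIP1, a calcium-binding subunit of A-type potassium channels, was at 2.94 ± 0.168 CPM (SD, n = 3) and had no ABCC1 count, at least 43.7-fold lower.

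Adhesion and matrix genes made up 9 of the 135. JAML, a junctional adhesion molecule-like receptor of leukocytes, was at 37.04, 38.01 and 39.50 CPM in empty vector cells and had 0, 3 and 1 counts in ABCC1 cells, at least 568-fold lower. Of 11 junctional adhesion and CTX family genes JAML was the only one under the ratio, while JAM3 stood at 15.2 and 17.1 CPM per kb and CXADR at 3.55 and 3.30 in empty vector and ABCC1 cells. CDH13, a cadherin anchored without a cytoplasmic tail, was at 3.96 ± 0.503 CPM with a single ABCC1 count. SPON2, a matrix spondin, went from 6.89 to 0.147 CPM, and CTNNA3, an alpha-catenin, from 4.84 to 0.348 CPM.

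The 7 channels and transporters and 10 receptors and signal proteins included members of quite different depth of loss. KCNMB2, an auxiliary subunit of the large-conductance calcium-activated potassium channel, went from 15.02 ± 0.882 to 0.113 ± 0.0225 CPM (SD, n = 3). KCNJ13, an inward rectifier channel, was at 5.83 CPM against 4 counts over the ABCC1 libraries, at least 86.7-fold lower. RASGRF2, an exchange factor that activates Ras and Rac, was less deeply reduced, from 22.3 ± 1.49 to 0.900 ± 0.240 CPM. The latrophilin ADGRL3 went from 6.83 to 0.523 CPM. APLN, the ligand of the apelin receptor, went from 12.6 ± 0.793 to 0.185 ± 0.0750 CPM.

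The 17 immune and blood proteins had a median of 0.960 CPM in empty vector cells, and 11 of them were at the floor in ABCC1 cells. The sialomucin CD34 was the highest, at 6.67 ± 0.495 CPM against 0.242 ± 0.0652 CPM. The class II histocompatibility gene HLA-DRB1 was at 3.22 against 0.103 CPM, where reads shared with close HLA genes make the value uncertain. JCHAIN, which links antibody monomers into polymers, was at 2.63, 2.96 and 2.63 CPM in the empty vector libraries and had 5, 7 and 8 counts in the ABCC1 libraries, 18.2-fold lower.

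The 10 metabolic enzymes included the lipid aldehyde dehydrogenase ALDH3B2, at 24.3 ± 1.10 CPM and with 2, 1 and 1 counts in ABCC1 cells, at least 361-fold lower. DPP4, a dipeptidyl peptidase of the cell surface, had no ABCC1 count against 1.41 CPM. HEPHL1, a copper-dependent ferroxidase, went from 4.07 to 0.230 CPM. Among 3 transcription regulators, EYA2, a transcriptional coactivator of developmental homeobox factors, had 1 count in 3 ABCC1 libraries against 4.52 ± 0.0997 CPM, and GLI3, a hedgehog pathway factor, went from 1.78 to 0.0575 CPM.

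Further genes among the 20 highest were ZMYND12 (14.6 against 0.609 CPM), the neuronal membrane protein PLPPR1 (6.87 CPM and at least 102-fold lower), KIAA2012 (6.80 against 0.0972 CPM), C1orf87 (6.64 against 0.0557 CPM) and the germline kinase gene STK31 (4.97 against 0.237 CPM). Also among the 20 were ENSG00000253474, a lincRNA at 5.82 CPM without an ABCC1 count, and ENSG00000254491, a processed pseudogene at 4.43 against 0.501 CPM. Of the 135 genes 94 were protein coding (69.6%), against 84.9% of the other genes at the level minimum. The others comprised 17 lincRNAs, 9 antisense RNAs and 7 processed pseudogenes among smaller classes, and 26 IDs had no symbol. The counting ignored strand, and 88 of the 135 genes overlap another annotated gene, so those values can hold reads of the partner.

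Genes just inside the ratio were DAPP1 (1.33 against 0.163 CPM), RPL7P29 (0.505 against 0.0613 CPM) and ENSG00000235209 (0.602 against 0.0697 CPM). Just outside lay KCNIP4 (29.8 against 3.83 CPM), CD38 (0.864 against 0.114 CPM) and ARHGAP15 (0.818 against 0.109 CPM). At the level minimum RPL7P29, MUSK and SLC22A16 lay inside at 0.505 to 0.513 CPM, and OPN4 and HBE1 outside at 0.492 and 0.476 CPM.

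The 135 genes were spread over 22 autosomes and the X chromosome, with 17 on chromosome 1, 14 on chromosome 6 and 12 on chromosome 11. Only 24 of them lay within 1 Mb of another, in 11 runs, and 111 lay alone. The longest run in members held IL19 (0.687 against 0.0106 CPM), FCAMR (0.947 CPM against none), C4BPB (1.53 against 0.0865 CPM) and CD34 over 1113 kb of chromosome 1. Genes between them kept their level, with CD55 at 70.1 and 86.5 CPM and CD46 at 107 and 113 CPM in empty vector and ABCC1 cells.

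JAML (chromosome 11, 118064455 to 118095809, minus strand, GRCh37) shared a run of 149 kb with CD3D (0.515 CPM against none), and MPZL3 between them stood at 10.7 and 8.27 CPM. CSN2 (3.26 against 0.00583 CPM) and JCHAIN (chromosome 4, 71521258 to 71547534, minus strand) flanked ODAM at 6.401 and 7.997 CPM and AMBN at 1.15 and 0.676 CPM. KCNJ13 and INPP5D (0.960 against 0.00583 CPM), a lipid phosphatase of blood cells, lay on either side of SNORC at 3.48 and 5.70 CPM. The folate receptor genes FOLR3 (0.620 against 0.0117 CPM) and FOLR2 (0.628 CPM against none) had no other gene at the level minimum between them, and are close paralogs whose reads can be shared.

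**Figure D2:**
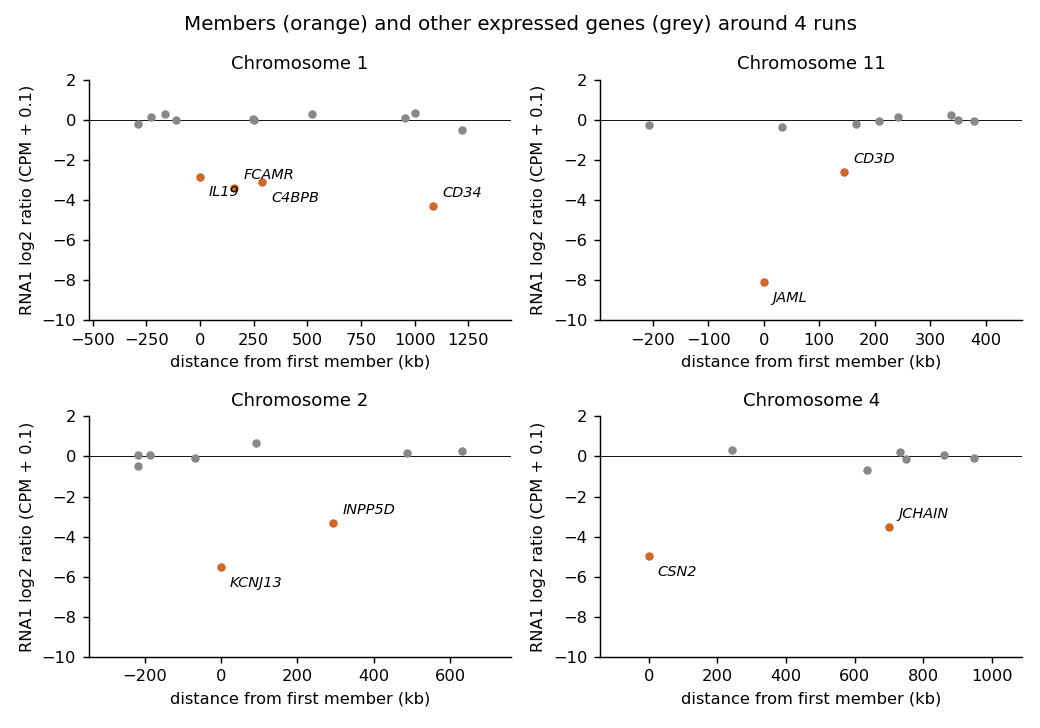
RNA1 log2 ratio of ABCC1 over empty vector (mean CPM plus 0.1) against distance in kb from the first member for 4 runs, with members in orange and other genes at the level minimum in grey. CD55 and CD46 in the chromosome 1 run and MPZL3 between JAML and CD3D lie near 0, beside members from -2.62 (CD3D) to -8.12 (JAML).

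The other runs were pairs. HLA-DRB1 shared a run of 431 kb with HLA-DOA (1.73 against 0.0433 CPM), CD48 (0.637 CPM against none) shared a run with FCGR2C (0.607 CPM against none), and CHRDL1 (0.601 against 0.0534 CPM) one with TRPC5 (0.818 against 0.0106 CPM). Between the last pair SERTM2 stood at 7.71 and 3.11 CPM, CAPN6 at 6.76 and 4.82 CPM and DCX at 368 and 257 CPM in empty vector and ABCC1 cells. The other genes there were ALG13 at 59.4 and 53.2 CPM, EIF4BP7 at 4.58 and 5.68 CPM and PAK3 at 0.782 and 1.24 CPM. GIPC2 (0.736 against 0.0295 CPM) shared a run of 159 kb with ENSG00000213561 (1.90 CPM against none). UNC13C (1.17 against 0.0177 CPM) lay near ENSG00000259669 (1.04 CPM against none), and LINC02672 (1.34 against 0.0106 CPM) near ENSG00000228651 (0.847 against 0.0222 CPM). FCGR2C has a close paralog in FCGR2B, which stood at 0.570 and 0.239 CPM. ENSG00000249577, a pseudogene at 1.21 CPM without an ABCC1 count, starts 85 bases past the end of MEGF10 (102 against 0.0295 CPM), and whether its reads come from that gene was not tested.

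The nearest expressed genes on either side of the 135 were 257 distinct genes. Of these, 13 (5.06%) stood at 0.5 times the empty vector level or less, against 394 of 15136 other genes (2.60%). MEGF10, which met the rule and was left out by name, is 1 of the 13. The log2 ratio of the neighbours had a median of 0.02 and that of the other genes 0.03. ANXA10 (chromosome 4, 169013666 to 169108841, plus strand) had such a neighbour in SPOCK3, at 10.1 and 3.97 CPM and 857719 bases away.

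In RNA2, 38 of the 135 genes in empty vector cells and 22 in ABCC1 cells stood above the 95th percentile of the olfactory receptor genes, which was 1.51 CPM per kb in the empty vector cells. In RNA3 the numbers were 21 and 14, with the percentile at 3.86 in empty vector cells. In RNA1 the rule's own level minimum placed all 135 above it in empty vector cells, so those numbers are not compared with RNA1. Over all 135 genes the median level in empty vector cells was 0.554 CPM per kb in RNA1, 0.955 in RNA2 and 2.06 in RNA3, and 35 and 24 genes were lower in RNA2 and RNA3 than in RNA1. Among the 21 genes at 2 to 10 CPM per kb in RNA1 empty vector cells the median was 3.66 CPM per kb there, 1.04 in RNA2 and 1.85 in RNA3. Other genes of the same range, 5253 in number, had medians of 4.88, 3.72 and 4.49. Between RNA1 and the repeats the kit and the instrument changed together with the cells, taken as cryopreserved in RNA2 and newly transfected in RNA3. These cannot be told apart in the levels.

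**Figure D3:**
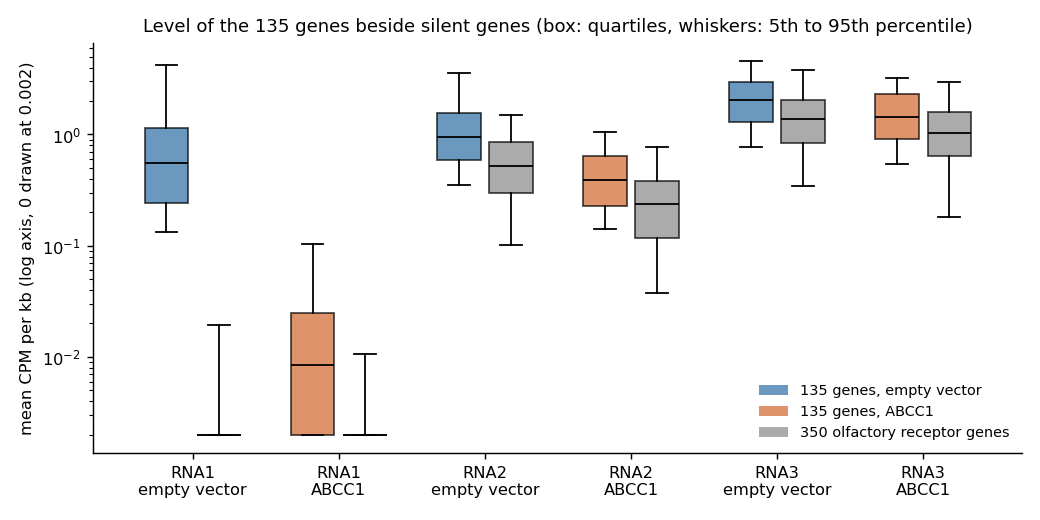
Mean CPM per kb (log axis, 0 drawn at 0.002) of the 135 genes and of 350 olfactory receptor genes in each group, with boxes at the quartiles and whiskers at the 5th and 95th percentiles. The medians of the 135 genes were 0.554 and 0.00847 in empty vector and ABCC1 cells of RNA1, and 0.955 and 0.393 in RNA2 beside 0.519 and 0.235 for the olfactory receptor genes.

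Between the lines, 9 of the 135 genes were lower in ABCC1 cells of RNA2 at an adjusted p of at most 0.05 (edgeR quasi-likelihood test), where 0.458% of 34091 tested genes were. None was higher, where 1.25% of tested genes were, with 0 also at an unadjusted p under 0.05 and by DESeq2 and limma-voom. Of the 135 genes 125 had enough counts for the test. Leaving out 1 library at a time gave 1 to 29 such genes. The number was 1 without empty vector replicate 3, where 0.00531% of all tested genes were called lower. It was 29 without ABCC1 replicate 3, where 2.09% were. The mean CPM was lower for 133 of the 135, but most other genes fell too. The median log2 change of mean CPM was -0.41 over all genes with a count. The upper quartile of the olfactory receptor genes was -0.45. Every ABCC1 library was lower than every control library for 76 of 135 genes (56.3%), for 18% of all genes with a count and for 81 of 350 olfactory receptor genes (23.1%). The opposite order held for none of the 135 and for 3.67% of all genes. Over all 135 the median log2 change of mean CPM (0.1 CPM added) was -1.15, and it was -0.92 for the olfactory receptor genes. It was -2.26, -1.15 and -0.73 for ABCC1 replicates 1, 2 and 3, in the order of their background levels. Summed markers of other cell types were measured in the same libraries. In RNA2 the 11 leukocyte genes without CD3D summed to 8.33 to 12.3 CPM per kb in empty vector libraries and 2.699 to 6.76 in ABCC1 libraries, with no gene of the list called. The endothelial genes summed to 6.03 to 9.66 against 1.95 to 4.11, with 1 of 7 called lower, and the Schwann and glial genes to 5.62 to 9.83 against 2.74 to 5.73, overlapping and with none of 8 called. The fibroblast sums overlapped too, at 27.7 to 36.7 against 28.04 to 31.81. In RNA3 these leukocyte sums were 20.3 to 28.2 against 15.6 to 24.02, overlapping, with 2 genes of the list called lower. The endothelial sums of RNA3 were 16.005 to 20.96 against 12.7 to 18.3 and the Schwann and glial sums 12.9 to 19.8 against 12.1 to 19.4, both overlapping and without a call. Of the adrenergic genes 1 of 16 was lower in RNA2, with 3 lower and 1 higher in RNA3, and of the mesenchymal genes 1 of 12 was higher in RNA2 and none was called in RNA3. No fibroblast gene was called in either repeat. PTPRC stood at 0.652 and 0.279 CPM per kb in empty vector and ABCC1 cells of RNA2 and at 2.03 and 1.13 in RNA3. CDH5 of the endothelial list stood at 1.15 and 0.550 and at 2.77 and 1.95. These values lay under the 95th percentile of the olfactory receptor genes in the same group and cannot be read as expression. CSF1R and NKG7 lay over it in both lines of either repeat. The part of these markers in the lower values of the 135 genes was not tested.

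ANXA10 was the most strongly changed. It was counted at 8.69, 10.7 and 13.3 CPM in the empty vector libraries of RNA2 and at 0.404, 0.682 and 0.554 CPM in the ABCC1 libraries. The log2FC was -4.14 (standard error 0.36, adjusted p = 9.17e-07, edgeR). Its empty vector level of 6.00 ± 1.27 CPM per kb (SD, n = 3) was above that of RNA1 (3.85 ± 0.391).

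SCGN was at 8.74, 12.1 and 13.2 CPM in empty vector cells and at 1.35, 1.11 and 2.74 CPM in ABCC1 cells. The groups did not overlap and the log2FC was -2.54 (standard error 0.33, adjusted p = 5.71e-04, edgeR). Per kb its empty vector level was 81.6 ± 4.04 CPM in RNA1 and 7.85 ± 1.61 CPM in RNA2. The kit, the instrument and the storage of the cells changed between these experiments together.

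JCHAIN was at 3.72, 4.61 and 5.32 CPM in empty vector cells and at 0.337, 0.426 and 0.489 CPM in ABCC1 cells, a log2FC of -3.25 (standard error 0.48, adjusted p = 0.00171, edgeR). Its ABCC1 level of 0.248 ± 0.0456 CPM per kb lay within the range of the olfactory receptor background of those libraries. JCHAIN overlaps ENAM in the annotation.

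JAML was at 11.995, 13.49 and 13.56 CPM in empty vector cells and at 0.976, 4.82 and 6.23 CPM in ABCC1 cells, with replicate 1 far below the others. The log2FC was -1.54 (standard error 0.36, adjusted p = 0.0310, edgeR). With the background as a covariate, an alternative chosen after seeing the data, it was -0.39 and not called. In the family list 1 of 11 genes, JAML itself, was lower in RNA2 and 1 in RNA3, again JAML.

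The other genes called lower in RNA2 were 5. TAFA1, a secreted neuronal peptide, stood at 4.65, 3.05 and 2.97 CPM against 0.269, 0.640 and 0.880 (log2FC -2.38, adjusted p = 0.0244, edgeR). LYZL2, a lysozyme-like protein, stood at 4.29, 1.96 and 3.26 CPM against 0.0673, 0.597 and 0.945 (log2FC -2.38, adjusted p = 0.0489). SPINK4, a serine protease inhibitor of goblet cells, had a log2FC of -2.14 (adjusted p = 0.0316), the adhesion receptor ADGRG7 one of -2.04 (adjusted p = 0.0357) and TC2N, a protein with tandem C2 domains, one of -1.92 (adjusted p = 0.0442). For each of these 5 genes the groups did not overlap. The background of RNA2 did not overlap between the lines, so a fit with it as a covariate separates background and line poorly. In that fit the median log2FC of the tested olfactory receptor genes went from -0.93 to 0.41. Of all tested genes 0.0147% were called lower there. With the background of each library as a covariate only ANXA10 (-4.13), JCHAIN (-3.21) and SCGN (-2.30) of the 9 were called. The others had log2FC of -1.74 (SPINK4), -1.69 (ADGRG7), -1.42 (TAFA1), -0.67 (TC2N), -0.55 (LYZL2) and -0.39 (JAML) in that fit, so SPINK4 and ADGRG7 lost the call with log2FC near those of the fit without it. Without ABCC1 replicate 1, 7 of the 9 were called, LYZL2 (-1.85) and TC2N (-1.50) were not, and the median over all 135 genes was -0.86.

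**Figure D4:**
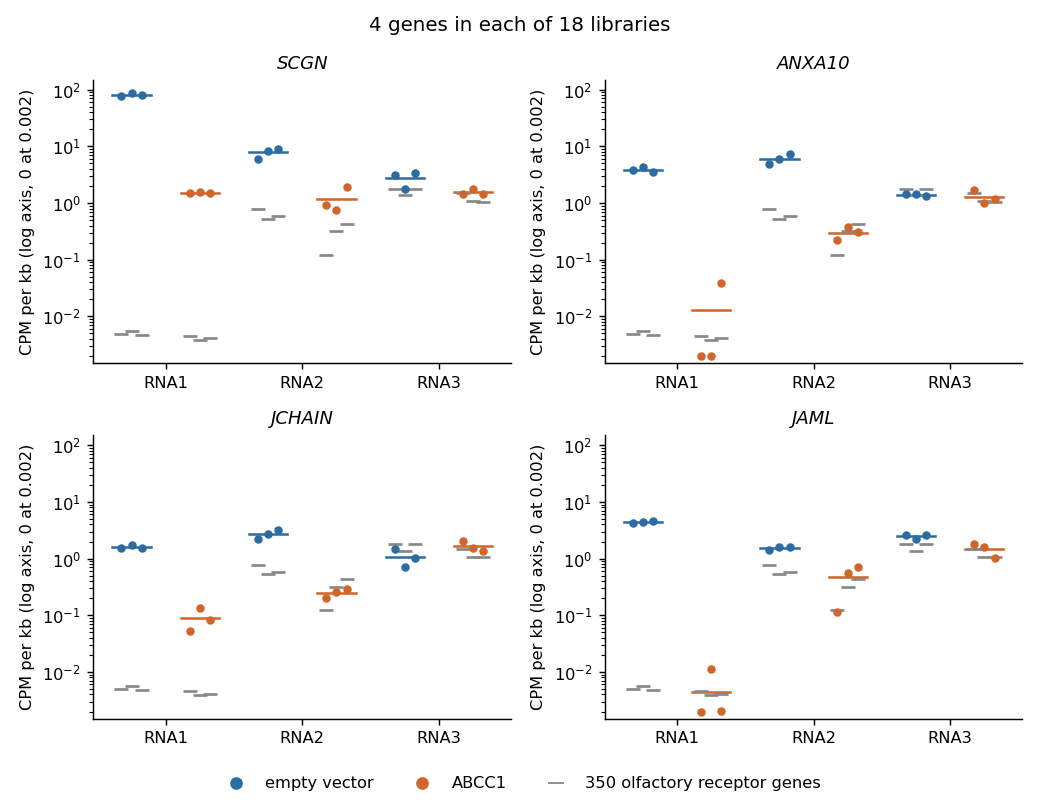
CPM per kb (log axis, 0 drawn at 0.002) of SCGN, ANXA10, JCHAIN and JAML in each of the 18 libraries, with bars at group means and grey marks at the pooled level of 350 olfactory receptor genes in the same library. In RNA2 the empty vector points lie above the ABCC1 points for all 4 genes, and in RNA3 ANXA10 is at 1.41 and 1.30 CPM per kb in empty vector and ABCC1 cells, beside a background of 1.05 to 1.81.

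In RNA3, 5 of the 135 genes were lower in ABCC1 cells (edgeR, adjusted p of at most 0.05), where 0.767% of 36509 tested genes were. Of 256 tested olfactory receptor genes 4 (1.56%) were called lower in the same fit. None was higher, where 2.03% were, with 1 at an unadjusted p under 0.05 by edgeR and 0 by DESeq2 and limma-voom. Of the 135 genes 123 had enough counts for the test. Leaving out 1 library at a time gave 1 to 11 such genes. The number was 11 without empty vector replicate 2 or ABCC1 replicate 1, where 1.09% and 1.43% of all tested genes were called lower. It was 1 without each of the others, where 0.277% to 0.346% were. Every ABCC1 library was lower than every control library for 26 of 135 genes (19.3%), for 12.3% of all genes with a count and for 59 of 350 olfactory receptor genes (16.9%), and higher for 2 (5.3% of all genes), which were ENSG00000253474 and MRGPRX10P. The median log2 change of the 135 genes was -0.49 and that of the olfactory receptor genes -0.38.

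NKAIN2, a partner of the sodium pump beta subunit, had the largest log2FC of the 5 called in RNA3. It was at 8.41, 7.99 and 6.80 CPM in empty vector cells and at 3.04, 3.07 and 2.95 CPM in ABCC1 cells, a log2FC of -1.24 (standard error 0.29, adjusted p = 0.00551, edgeR). In RNA1 it was among the weakest of the 135 genes, at 0.566 CPM against 0.0523 CPM. Its level in ABCC1 cells of RNA3, 0.741 CPM per kb, was under the pooled background of 1.05 to 1.503 in the same libraries. NKAIN2 was the 1 gene of the 5 called with the background as a covariate (-1.48). Of all tested genes 1.5996% were called lower there. In that fit JAML had a log2FC of -0.42, SLC7A8 of -0.28, BPIFB1 of -0.25 and NLRP5 of -0.23.

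The other 4 had log2FC of -0.62 to -0.73. NLRP5, an oocyte protein, was at 19.04, 13.93 and 20.05 CPM against 14.4, 7.16 and 8.09, so that the groups overlapped (log2FC -0.73, adjusted p = 0.0216, edgeR). SLC7A8, an amino acid exchanger, was at 25.6, 17.7 and 26.4 CPM against 17.3, 13.4 and 10.5 (log2FC -0.64, adjusted p = 0.0256). JAML was at 22.4, 18.7 and 22.5 CPM against 15.7, 13.6 and 8.84, without overlap (log2FC -0.62, standard error 0.18, adjusted p = 0.0375). BPIFB1, a secreted airway protein, was at 18.1, 11.6 and 18.1 CPM against 11.7, 9.44 and 6.35, with overlap (log2FC -0.67, adjusted p = 0.0487). DESeq2 called none of the 135 genes in RNA3, with 15 lower at an unadjusted p under 0.05, and of 14 alternatives JAML and BPIFB1 passed under 5, SLC7A8 under 6, NLRP5 under 7 and NKAIN2 under 12.

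None of ANXA10, JCHAIN and SCGN was called in RNA3. ANXA10 was at 2.63, 2.63 and 2.38 CPM in empty vector cells and 3.13, 1.81 and 2.12 CPM in ABCC1 cells (log2FC -0.02, standard error 0.40, adjusted p = 0.989, edgeR). JCHAIN was at 2.43, 1.19 and 1.70 CPM against 3.40, 2.59 and 2.27 (log2FC 0.76, standard error 0.42, adjusted p = 0.389). SCGN was at 4.56, 2.55 and 4.98 CPM against 2.06, 2.52 and 2.12 without overlap (log2FC -0.69, standard error 0.37, adjusted p = 0.365). Per kb, ANXA10 (1.41 and 1.30 CPM) and JCHAIN (1.06 and 1.64 CPM) lay at the background of 1.05 to 1.81 in these libraries and SCGN was at 2.79 and 1.54. At such levels a loss of these 3 genes could not be told from background.

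**Figure D5:**
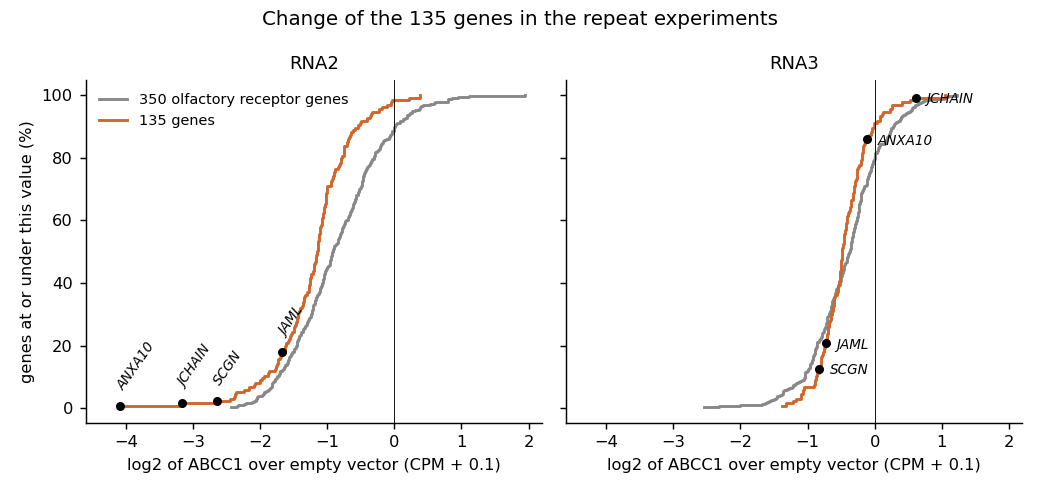
Cumulative share of genes by log2 change of mean CPM (0.1 CPM added, ABCC1 over empty vector) in RNA2 and RNA3, for the 135 genes and for 350 olfactory receptor genes, with 4 genes marked. The 135 genes run from -4.08 (ANXA10) to 0.39 in RNA2 and from -1.39 to 1.05 in RNA3, with medians of -1.15 and -0.49.

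Whether the difference between the lines changed between the repeats was tested as an interaction over the 12 libraries. Of 41448 tested genes 2 had a higher log2FC in RNA3 than in RNA2 at an adjusted p of at most 0.05 (0.00483%), and both were among the 135. ANXA10 differed by 4.14 (standard error 0.51, adjusted p = 5.92e-05, edgeR) and JCHAIN by 4.05 (standard error 0.62, adjusted p = 0.00193). None of the 135 was called lower, where 0.00241% of genes were (1 gene, NPY), with 0 at an unadjusted p under 0.05 and 0 by DESeq2. For SCGN the difference was 1.88 (standard error 0.49, adjusted p = 0.687) and for JAML 0.95 (standard error 0.43, adjusted p = 0.755), so a change between the repeats was not shown for either.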

How the data were processed

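RNA of BE(2)-m17 cells was measured by RNA-seq in 18 libraries. The deposited values are raw counts of read pairs per gene: per the file headers and the labels, the authors aligned reads with STAR 2.7.3a to GRCh37 and counted exons of Ensembl 74 genes with featureCounts 2.0.0, without strand. For RNA1 the labels name both the TruSeq RNA and the SMARTer total RNA kit, and the study's methods give the first for RNA1 and the second for RNA2 and RNA3.

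CPM were computed here over the Ensembl rows (spike-ins and vector sequences, 0.354% to 1.32% of counts, left out), without normalization factors, and per kb of exon where genes are compared. Symbols and classes came from name tables and GENCODE 29. RNA2, RNA3 and their interaction were each fitted in R 4.3.3 with edgeR 4.0.16 (filterByExpr minimum count 10, TMM, robust quasi-likelihood test, two-sided, Benjamini-Hochberg over all genes tested). The standard error is the log2FC over the root of its F statistic. Exact permutation tests of 3 libraries against 3 cannot go below p = 0.1, so non-overlap is given. Alternatives were DESeq2 1.42.0, limma-voom (limma 3.58.1), RLE size factors, other filters, a replicate block, each library left out, and a joint fit of 12 libraries. The background covariate was added after seeing the data. The scripts were tested on simulated data.

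The members, the marker and family lists and the tests were chosen with earlier results of these data known. Genes named are the 20 highest in RNA1 empty vector cells, those called in RNA2 or RNA3, those within 1 Mb of another and the 3 nearest either side of the ratio. Others, named as examples of their role, were chosen after their values were seen. Libraries of a group differed by 1.48 to 22.4 chi-square per degree of freedom, so each counted as 1 replicate.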

Additional observations from a re-analysis of the deposited data

Results flagged for a closer look

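The difference between ABCC1 and empty vector lines in ANXA10 and JCHAIN was not the same in the repeat experiments, with a log2FC 4.14 and 4.05 higher in RNA3 than in RNA2 (edgeR interaction test, adjusted p = 5.92e-05 and 0.00193). In RNA2 both were lower in each ABCC1 library than in any empty vector library. In RNA3 the ABCC1 libraries of JCHAIN ran from 2.27 to 3.40 CPM against 1.19 to 2.43 in empty vector cells, and those of ANXA10 from 1.81 to 3.13 CPM against 2.38 to 2.63. Both genes were called under all 17 alternatives, with adjusted p from 1.38e-09 to 0.0074 for ANXA10 and from 9.95e-07 to 0.0483 for JCHAIN. The level of both genes in RNA3 was close to the olfactory receptor background, and the part of background in the difference was tested only by the covariate, under which it was 4.12 and 3.95.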

How the results depend on the processing

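By the rule the genes numbered 73 at a minimum of 1 CPM, 277 with at least 3 counts in each empty vector library as the minimum (all 135 included), and 130 to 138 with 1 library left out. The count called lower in RNA2 (9) was 6 with DESeq2, 21 with limma-voom, 14 with RLE size factors, 21 without a filter, 16 with at least 10 counts in every library, 45 in the fit of 12 libraries and 3 with the background covariate, an alternative chosen after seeing the data, and ran from 1 to 29 with 1 library left out. The count in RNA3 (5) was 0 with DESeq2, 2 with RLE, 3 without a filter, 0 in the 12-library fit (4 at an unadjusted p under 0.05) and 1 with the covariate, and ran from 1 to 11. The share of all tested genes called lower moved too, from 0.458% in RNA2 to 1.46% (limma-voom), 0.886% (RLE), 0.931% (no filter), 3.08% (at least 10 counts), 4.198% (12-library fit, with 13 of 301 olfactory receptor genes) and 0.0147% (covariate). In RNA3 the share went from 0.767% to 0.257% (DESeq2), 0.545% (RLE), 0.405% (no filter) and 0.1399% (12-library fit). With the covariate the RNA3 share rose to 1.5996%, while the count among the 135 genes fell from 5 to 1. The causes were not tested. RLE moved the median log2FC of all genes in RNA2 from -0.19 to -0.08.

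The ANXA10 log2FC in RNA3, -0.02, changed sign without being called, to 0.0509 (DESeq2), 0.0380 (RLE), 0.0356 (12-library fit), 0.0131 (at least 10 counts) and 0.11 (covariate), and ran from -0.15 to 0.11 with 1 library left out. At 2 times the 95th percentile of the background, 8 genes in empty vector and 1 in ABCC1 cells of RNA2, and 3 and 0 in RNA3, stood above it. Against genes with no count in RNA1 the RNA3 numbers were 10 and 9.

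Whether replicate numbers pair the samples was not settled. Same-numbered libraries had correlations of -0.22 to 0.19 and different-numbered ones of -0.28 to 0.21. The study plated cells of each line weekly, and the labels do not say whether same-numbered libraries share a week. A replicate block gave 12 calls in RNA2, 10 in RNA3 and 2 in the interaction, while the share of all genes called lower rose from 0.458% to 0.786% in RNA2 and from 0.767% to 1.48% in RNA3. The interaction gave the same 2 calls under all 17 alternatives, and the RNA2 call of ANXA10 held under all 14. SCGN held under 13 and JCHAIN under 12 of 14, against 8 of 14 for JAML, SPINK4 and ADGRG7, 7 of 14 for TC2N, 7 of 13 for TAFA1 and 6 of 13 for LYZL2. RNA3 was the shallowest and carried the highest background, which limits what can be seen there.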
